A study of Drosophila melanogaster with 8 samples.

Results

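Cell division was followed through 49 genes that act in the cell cycle and in DNA replication, in brains of Drosophila melanogaster larvae with and without Stim. The genes were listed by name, with earlier results of these data known. They are the main cyclins and cyclin-dependent kinases, the replication licensing proteins, the mitotic kinases, and the genes of the kinetochore, of cytokinesis and of chromosome condensation. All 49 were among the 17173 genes that have a row in the count files. They were divided by the step at which they act into 8 genes of G1 to S control, 12 of replication licensing and S phase, 7 of the entry into mitosis, 7 of the spindle checkpoint and anaphase, 5 of the centromere, kinetochore and chromosomal passengers, 6 of the spindle and cytokinesis, and 4 of chromosome condensation.

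RNA of whole larval brains was sequenced from wild-type Canton S larvae (CS) aged 58 to 62 h and from null mutants of Stim (STIM KO) aged 72 to 76 h, with 4 libraries of each. Stim encodes the calcium sensor of the endoplasmic reticulum that starts store-operated calcium entry. The study took these ages as comparable stages of the second instar, so genotype and age differ together in every comparison and cannot be told apart. The mutation is present in every cell of the animal, and each library pooled several brains.

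In the larval brain, neuroblasts grow, re-enter the cell cycle and divide asymmetrically many times, and the neurons they produce do not divide. CycE with Cdk2 starts S phase once E2f1 and Dp are released from Rbf. The origin recognition complex and dup load the Mcm2 to Mcm7 helicase in G1, and geminin stops a second loading. CycA, CycB and CycB3 with Cdk1, which the phosphatase stg activates, start mitosis. The anaphase-promoting complex with fzy or fzr then ends it. The comparison asks whether RNA of this machinery differs between CS and STIM KO brains. In RNA of a whole brain, fewer dividing cells and less RNA of these genes in each cell cannot be told apart.

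The libraries held 395680 to 2090717 reads counted on transcripts, which were 3.60% to 11.6% of their reads. They formed a pair of sets in both genotypes. Replicates 1 and 2 held 395680 to 1129439 counts with 9.89% to 18.0% of reads ambiguous between features, and replicates 3 and 4 held 1626626 to 2090717 counts with 33.5% to 34.5% ambiguous. The labels name no batch. The main counts and most fold changes are therefore also given with the set as a term of the fit (the set term). A count of 3, taken as the floor, corresponds to a CPM (a count scaled by library total and TMM factor) of 1.25 to 9.62, depending on the library. The brain markers elav of neurons, repo of glia and dpn of neuroblasts were present in all 8 libraries, at 150.0 to 1260, 116 to 359 and 14.0 to 402 CPM. Some other markers of these cell types were near or at 0. Over the 8 libraries Appl of neurons had 5 counts and moody of glia had 8. Eaat1 of glia was at 0 CPM in CS replicates 1 and 2, and mira of neuroblasts at 2.41 CPM in STIM KO replicate 3. The summed Stim count was 6, 4, 12 and 14 in CS and 14, 19, 3 and 2 in STIM KO, so it did not separate the genotypes. Of the 4 Stim transcripts listed, 1 had 2, 3, 6 and 9 counts in CS and 0 in each STIM KO library, and another had 1 to 6 counts in CS and 2 to 19 in STIM KO. Where the null allele lies relative to these transcripts is not given in the sources used here.

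How well a gene could be measured depended on its number of transcripts. Reads were counted per RefSeq transcript, and the files list reads that fell on several features as ambiguous, outside the counts. The 22 genes with a single RefSeq transcript had 172 to 8719 counts over the 8 libraries, with a median of 1637, and held 92.4% of the counts of the 49 genes. The 27 genes with several had 0 to 1450, with a median of 29. PCNA, the sliding clamp of the DNA polymerases, had 29 counts, and only 6.82% of its exon bases lie in a single annotated transcript. CycB had 10 counts and the topoisomerase Top2 had 17. No read was counted on geminin, Mcm3, dpa (which encodes Mcm4), borr or barr. These low values therefore describe the counting and give no level of expression.

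**Figure D1:**
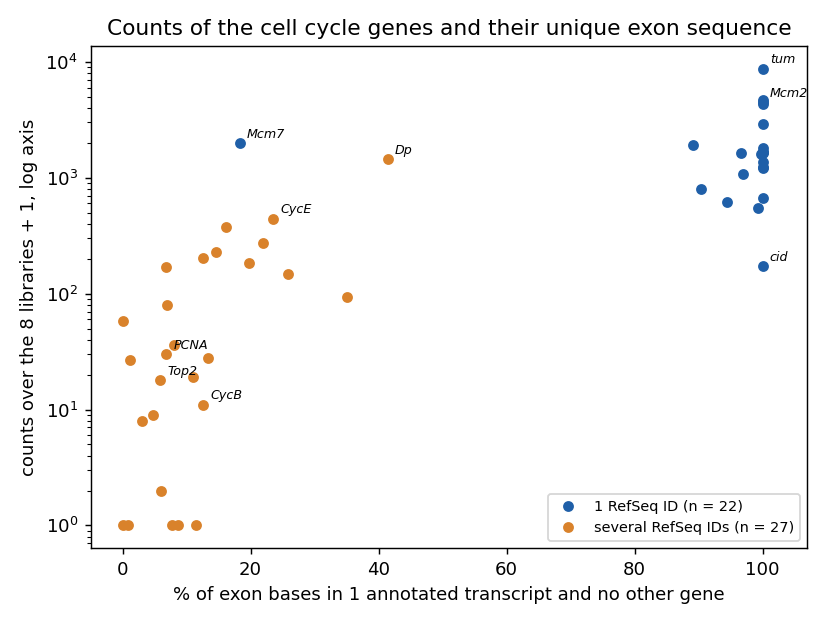
Counts of the 49 cell cycle genes. Each point is a gene, with the share of its exon bases that lie in a single annotated transcript and in no other gene on the x axis (percent) and its counts over the 8 libraries, plus 1, on the y axis (log axis). Blue points are the 22 genes with 1 RefSeq transcript, at 172 to 8719 counts, and orange points the 27 genes with several, at 0 to 1450 counts.

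The expression minimum (7.26 CPM before TMM scaling in at least 4 libraries) was passed by 5539 genes, 32 of the 49 among them. All 22 genes with a single transcript passed it, and 10 of the 27 others. The 17 that did not pass were CycD, Cdk4, geminin, Mcm3, dpa, PCNA, CycB, Bub1, Bub3, pim, thr, Incenp, borr, pbl, scra, Top2 and barr, with 0 to 93 counts each. Of the 32, 24 were above the minimum in all 8 libraries. A further 3, Cdk2, CycB3 and cid, were above it in every CS library but not in every STIM KO library. For 2 it was the other way round. Counts over the 32 therefore describe the measured genes and are not counts over all 49.

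No cell cycle gene and no other gene differed between CS and STIM KO in the quasi-likelihood test of edgeR with an adjusted p under 0.05 (background 0% lower and 0% higher). Lower values in STIM KO were nevertheless the common pattern among the 32. The log2 fold change was below 0 in 28 of 32, against 47.4% of all genes tested, and above 0 for Cdk2, dup, fzr and polo, against 52.6% of all genes. The median was -0.80, against 0.04 for all genes tested. At an unadjusted p under 0.05, 9 of the 32 were lower (aurB, Cdk1, cid, CycB3, fzy, Klp61F, Mcm6, Mcm7 and pav), against a background of 2.96%, and 0 were higher, against 3.54%. Over all genes, edgeR gave 164 lower and 196 higher at that unadjusted threshold. DESeq2 called 78 of 5539 genes at an adjusted p under 0.05, 41 of them lower and 37 higher. Of the 32, 2 were among the lower, Mcm6 (adjusted p = 0.0149) and Cdk1 (adjusted p = 0.0491), and 0 were among the higher. The replicate number as a block raised the count of all genes called by edgeR from 0 to 16, and that of the 32 stayed at 0. In 7 of the 32 genes (aurB, Cdk1, cid, fzy, Klp61F, Mcm6 and Mcm7) every STIM KO library was below every CS library, against 3.01% of all genes. None showed the reverse, against 3.21%. Without overlap, an exact permutation test of 4 libraries against 4 always gives its smallest p, 0.0286, so it adds nothing for these genes. Of the genes named, CycB3 and cid were above the expression minimum in every CS library but not in every STIM KO library. Among the 24 genes above it in all 8 libraries, 23 had a log2 fold change below 0, with a median of -0.83. At an unadjusted p under 0.05 by edgeR 7 of the 24 were lower, and 6 had no overlap. The shares over all genes were not counted under that limit.

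Once the library set entered the fit, 39 of all genes passed an adjusted p under 0.05 (0.379% lower, 0.325% higher), and 0 of the 32 did. At an unadjusted p under 0.05, 11 of the 32 were lower, the 9 above with CycA and Orc1, against a background of 8.03%, and 0 were higher, against 8.94%. The log2 fold change was below 0 in 25 of the 32, with a median of -0.73, against 0.10 for all genes. Of the 22 genes with a single transcript, all 22 had a log2 fold change below 0 without the set term, with a median of -0.97, and 18 of 22 with it, with a median of -0.89. Of the 10 with several transcripts 6 were below 0 without it, with a median of -0.34, and the median was -0.30 with it. Leaving out CS replicate 3 brought the count at an unadjusted p under 0.05 from 9 to 5, and leaving out STIM KO replicate 3 brought it to 4. With the set term the same libraries left 9 and 8 of 11. The shares over all genes in these fits were not counted.

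**Figure D2:**
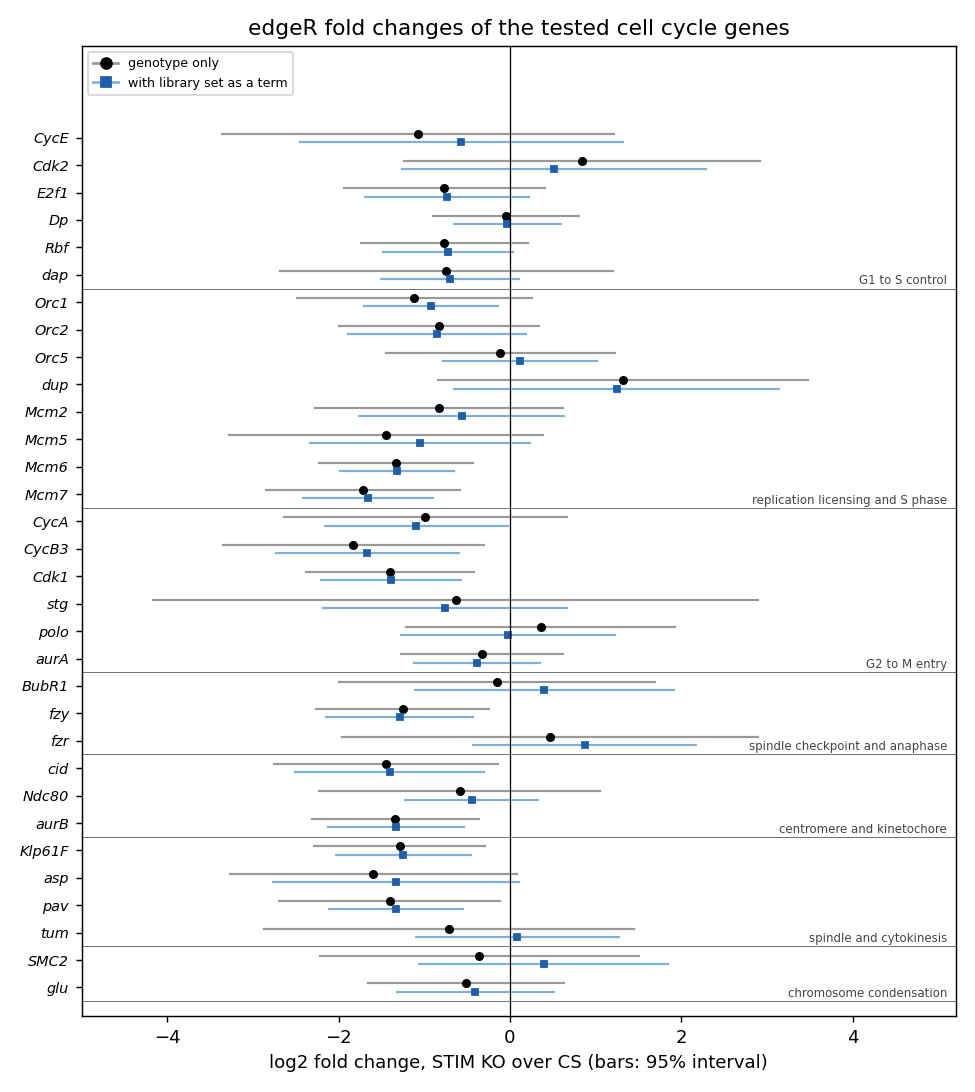
Fold changes of the 32 tested cell cycle genes, in order of cell cycle step. The x axis is the log2 fold change of STIM KO over CS by edgeR, black circles without and blue squares with the set term, and bars are 95% intervals. Without the set term 28 of 32 circles lie left of 0, and the intervals of 9 genes leave out 0.

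Replication licensing and S phase held 8 tested genes of 12, with a median log2 fold change of -0.97 (-0.89 with the set term, and -1.46 without STIM KO replicate 4). The Mcm2 to Mcm7 ring unwinds DNA at the fork. Mcm6 (dm6 X:6674387-6677176, plus strand) was at 282, 325, 349 and 458 CPM in CS and at 153, 134, 101 and 175 CPM in STIM KO. The lowest CS library was above the highest STIM KO library. Its mean was 354 ± 75.0 CPM (SD, n = 4) in CS and 141 ± 31.3 CPM in STIM KO (SD over 4 libraries). Its log2 fold change was -1.33 (SE 0.40, edgeR adjusted p = 0.570), and -1.32 with the set term (adjusted p = 0.0805). Over all settings tried the adjusted p of Mcm6 ranged from 0.0149, with DESeq2, to 1.

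Mcm7 (3L:8891596-8894310, plus strand) was at 147, 150.0, 323 and 305 CPM in CS and at 55.9, 56.8, 47.3 and 122 CPM in STIM KO. Here too no STIM KO library reached the level of any CS library. Its log2 fold change was -1.72 (SE 0.51, edgeR adjusted p = 0.548), and -1.66 with the set term (adjusted p = 0.0623). The antisense gene asRNA:CR45871 overlaps 81.7% of the exon bases of Mcm7 on the opposite strand, and the library kit does not mark strand, so reads of the pair cannot be told apart there. The counts of asRNA:CR45871 were 11, 23, 497 and 608 in CS and 52, 26, 78 and 239 in STIM KO.

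Mcm2, the highest of the licensing genes in CPM, was at 212, 148, 629 and 683 CPM in CS and at 344, 154, 105 and 341 CPM in STIM KO. The genotypes were apart in replicates 3 and 4 and overlapped in replicates 1 and 2. Mcm2 had a log2 fold change of -0.83 (95% interval -2.27 to 0.62), and -0.56 with the set term. Mcm5 gave -1.45 (95% interval -3.28 to 0.39), and -1.05 with the set term. Of the origin recognition complex, Orc1 was at 67.3, 62.7, 245 and 248 CPM in CS and at 49.9, 49.5, 61.8 and 127 CPM in STIM KO, below CS within each library set. Orc1 had a log2 fold change of -1.12 (SE 0.61, edgeR adjusted p = 0.839), and -0.92 with the set term (adjusted p = 0.224). Orc2 gave -0.83 (SE 0.52) and -0.85 with the set term, and Orc5 gave -0.11 without and 0.12 with the set term. The loading factor dup, the homologue of Cdt1, gave 1.32 (95% interval -0.84 to 3.48), and 1.25 with the set term. It had 0 counts in CS replicates 1 and 2 and 21 CPM in STIM KO replicate 1, and it gave 0.61 without that STIM KO library.

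G1 to S control held 6 tested genes of 8, and none of them had an unadjusted p under 0.05 by edgeR in either fit. The gene with the most CPM was Rbf, the fly retinoblastoma protein (X:797090-801479, minus strand), at 285, 247, 185 and 141 CPM in CS and at 74.9, 167, 142 and 119 CPM in STIM KO. The genotypes met at the lower end of CS. For Rbf the log2 fold change was -0.77 (95% interval -1.74 to 0.21), and -0.72 with the set term. E2f1, the activator of S phase genes, and the Cdk2 inhibitor dap gave -0.77 and -0.74 (-0.73 and -0.70 with the set term), and both were lower in STIM KO within each library set. Dp, the partner of E2f1, was at 103 to 176 CPM in CS and at 118 to 171 CPM in STIM KO, with a log2 fold change of -0.04 (95% interval -0.90 to 0.81), and -0.03 with the set term. CycE gave -1.07, and -0.57 with the set term, with 0 counts in CS replicate 2. Cdk2 gave 0.84, and 0.52 with the set term and -0.74 without STIM KO replicate 1, with 43.9% of its exon bases under CG17267 on the other strand. The median of the step was -0.76 (-0.64 with the set term).

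**Figure D3:**
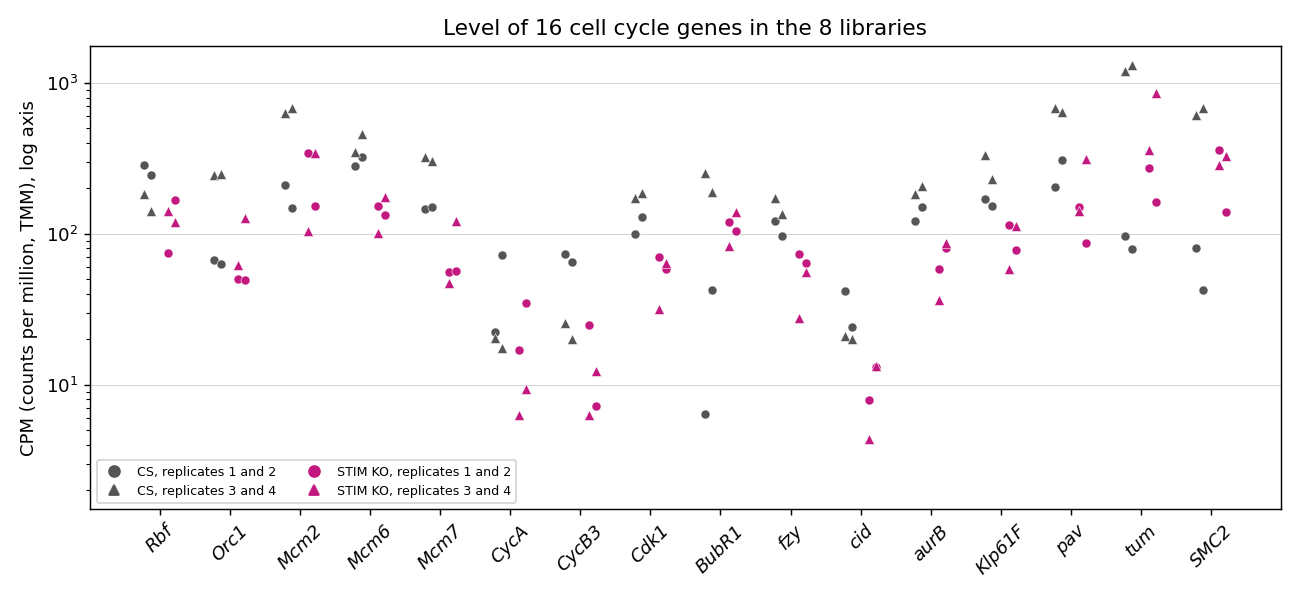
Levels of 16 cell cycle genes in each library. The y axis is CPM after TMM scaling (log axis), grey is CS and magenta is STIM KO, circles are replicates 1 and 2 and triangles replicates 3 and 4. Mcm6, Mcm7, Cdk1, fzy, cid, aurB and Klp61F are the genes in which the lowest grey point lies above the highest magenta point, and BubR1, tum and SMC2 are higher in magenta among circles and lower among triangles.

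Of the genes of entry into mitosis, 6 of 7 were tested, with a median log2 fold change of -0.81 (-0.92 with the set term). It was -0.27 without CS replicate 2, and -1.54, -0.46 and -0.51 without STIM KO replicates 2, 3 and 4. Cdk1, the kinase of mitosis (2L:10384739-10386262, minus strand), was at 99.4, 129, 174 and 186 CPM in CS and at 69.9, 58.2, 31.9 and 64.3 CPM in STIM KO. The groups did not overlap. The mean of Cdk1 was 147 ± 40.0 CPM (SD, n = 4) in CS and 56.1 ± 16.8 CPM in STIM KO (SD over 4 libraries). The log2 fold change of Cdk1 was -1.40 (SE 0.44, edgeR adjusted p = 0.584), and -1.39 with the set term (adjusted p = 0.105). With DESeq2 it was -1.45 (adjusted p = 0.0491). CycB3 (3R:24867934-24870816, minus strand) was at 73.7, 64.7, 25.8 and 20.0 CPM in CS and at 25.0, 7.28, 6.28 and 12.4 CPM in STIM KO, lower in STIM KO within each set. At -1.83 (SE 0.68, edgeR adjusted p = 0.696) its log2 fold change was the lowest of the 32, from 227 counts in all. It was -1.66 with the set term (adjusted p = 0.121). All counts of CycB3 fell on 1 of its 2 RefSeq transcripts, and 14.6% of its exon bases lie in a single annotated transcript. A shift between its transcripts and a change of the whole gene cannot be told apart here.

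CycA (3L:11826719-11833578, minus strand) was at 22.4, 72.8, 20.3 and 17.5 CPM in CS and at 17, 34.9, 6.28 and 9.39 CPM in STIM KO. CS replicate 2 stood above the rest. CycA had a log2 fold change of -0.99 (SE 0.74, edgeR adjusted p = 0.931), and -1.09 with the set term (adjusted p = 0.281). Without CS replicate 2 it was -0.30. All counts of CycA fell on 1 of its 2 RefSeq transcripts, with 12.6% of its exon bases in a single annotated transcript, so it has the same limit as CycB3. The limit also holds for the genes above 0, Cdk2, dup, fzr and polo. Of their counts 95.9%, 100%, 99.2% and 100% fell on 1 transcript. Of their exon bases 6.74%, 6.88%, 16.2% and 22.0% lie in a single annotated transcript. The kinase aurA, which matures the centrosomes, gave -0.32 (95% interval -1.27 to 0.62), and -0.39 with the set term. The kinase polo gave 0.36 without and -0.02 with the set term, and -0.54 without STIM KO replicate 1. The phosphatase stg, the fly Cdc25, followed the library sets: it was at 60.9, 91.0, 12 and 85.9 CPM in replicates 1 and 2 of CS and of STIM KO, in that order, and at 0.494 to 2.31 CPM in replicates 3 and 4.

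Of the spindle checkpoint and anaphase genes, 3 of 7 were tested, and they differed among themselves. The activator of the anaphase-promoting complex fzy, the fly Cdc20 (2L:16310956-16313097, plus strand), was at 122, 97.0, 173 and 135 CPM in CS and at 73.9, 64.1, 27.5 and 56.3 CPM in STIM KO, with no overlap. The log2 fold change of fzy was -1.25 (SE 0.45, edgeR adjusted p = 0.660), and -1.29 with the set term (adjusted p = 0.130). The checkpoint kinase BubR1 was at 6.41, 42.5, 252 and 188 CPM in CS and at 119, 105, 83.1 and 140.0 CPM in STIM KO. STIM KO was above CS in replicates 1 and 2 and below it in replicates 3 and 4, and the log2 fold change of BubR1 was -0.15 without and 0.40 with the set term. The interphase activator fzr gave 0.47 (95% interval -1.96 to 2.90), and 0.87 with the set term, with 0 counts in CS replicate 1. The median of the 3 genes was -0.15, and it turned to 0.40 with the set term and to 0.45 with the replicate number as a block.

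Of the centromere and chromosomal passenger genes, 3 of 5 were tested, and all 3 had log2 fold changes below 0 in both fits, with a median of -1.34 (-1.33 with the set term). The centromeric histone cid, the fly CENP-A, was at 41.7, 24.3, 21.2 and 20.0 CPM in CS and at 7.99, 13.1, 4.35 and 13.3 CPM in STIM KO. For cid the log2 fold change was -1.44 (SE 0.58, edgeR adjusted p = 0.697), and -1.40 with the set term (adjusted p = 0.190), from 172 counts in all. The passenger kinase aurB (2L:10856797-10858094, minus strand) was at 122, 150.0, 184 and 207 CPM in CS and at 58.9, 80.1, 36.7 and 87.0 CPM in STIM KO. The genotypes did not overlap in cid or in aurB. The log2 fold change of aurB was -1.34 (SE 0.43, edgeR adjusted p = 0.584), and -1.33 with the set term (adjusted p = 0.108). The outer kinetochore gene Ndc80 gave -0.59 (95% interval -2.23 to 1.06), and -0.44 with the set term.

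The spindle and cytokinesis genes held 4 tested genes of 6, with a median of -1.35 (-1.29 with the set term, and -0.73 without CS replicate 3). The kinesin-5 motor Klp61F (3L:1241568-1245910, minus strand) was at 170, 152, 331 and 230 CPM in CS and at 114, 78.6, 58.4 and 112 CPM in STIM KO, with no overlap. Klp61F had a log2 fold change of -1.29 (SE 0.45, edgeR adjusted p = 0.649), and of -1.24 with the set term (adjusted p = 0.115). The kinesin-6 pav (3L:4242734-4246233, plus strand) and tum form the centralspindlin complex of the cleavage furrow. The level of pav was 205, 309, 677 and 637 CPM in CS and 151, 87.4, 141 and 311 CPM in STIM KO, and it was lower in STIM KO within each set. For pav the log2 fold change was -1.40 (SE 0.58, edgeR adjusted p = 0.716), and -1.33 with the set term (adjusted p = 0.105). Its partner tum was at 96.2, 78.8, 1200 and 1320 CPM in CS and at 274, 163, 361 and 858 CPM in STIM KO, higher in STIM KO in replicates 1 and 2 and lower in replicates 3 and 4. Its fold change of -0.71 on the log2 scale turned to 0.09 with the set term. The spindle pole gene asp gave -1.59 (95% interval -3.27 to 0.08), and -1.33 with the set term, with 463 CPM in CS replicate 3 and 32.0 to 109 CPM in the other libraries.

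Of the condensation genes, the condensin subunits SMC2 and glu (the fly SMC4) were tested of 4, with a median of -0.44 (-0.01 with the set term). Without CS replicates 1, 2, 3 and 4 in turn it was -0.71, -0.75, 0.00 and -0.19, and without STIM KO replicate 2 it was -0.28. SMC2 was at 80.2, 42.5, 613 and 680 CPM in CS and at 360, 140.0, 284 and 326 CPM in STIM KO. As in BubR1 and tum, the order of the genotypes turned between the sets. The log2 fold change of SMC2 was -0.36 without and 0.39 with the set term. For glu it was -0.51 (95% interval -1.66 to 0.63), and -0.40 with the set term.

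Per kilobase of exon, levels of the 22 genes with a single transcript ran from 18.0 CPM for cid to 231 CPM for tum, averaged over the 8 libraries. The next highest were Mcm2 at 113, pav at 98.2, aurB at 97.7 and Cdk1 at 93.9 CPM per kilobase. No gap between neighbours in this order of 5 was larger than the SD of the CS libraries for the higher gene, an SD that includes the difference between the library sets. In CS replicates 3 and 4 tum was at 537 CPM per kilobase, against 226 for Mcm2. In CS replicates 1 and 2 tum was at 96.2 and 78.8 CPM, below Mcm2, pav, aurB and Cdk1 in both, so its place differed between the sets.

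The library sets were compared in the same way. With genotype in the fit, 3 of the 32 (CycA, dap and stg) were lower in replicates 3 and 4 than in replicates 1 and 2 at an adjusted p under 0.05 by edgeR, against 23.3% of all genes. Another 8 (fzr, Mcm5, Ndc80, Orc1, Orc5, pav, SMC2 and tum) were higher, against 26.7%. Neither count was above the share over all genes.

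The summed level of the 22 genes with a single transcript was 2560, 2580, 6800 and 6420 CPM in CS and 2480, 1840, 1850 and 3480 CPM in STIM KO. In replicates 3 and 4 the CS mean was 2.48 times that of STIM KO, and in replicates 1 and 2 it was 1.19 times. The ratio of summed levels in replicates 3 and 4 was 2.94 for licensing and S phase (7 genes), 2.69 for entry into mitosis (2 genes) and 2.53 for the spindle and cytokinesis (4 genes). It was 2.44 for the checkpoint and anaphase (2 genes), 2.20 for the centromere and passengers (3 genes), 2.11 for condensation (2 genes) and 1.30 for G1 to S control (2 genes, Rbf and dap). In replicates 1 and 2 it was highest for G1 to S control, at 1.94, and it was below 1 for condensation, at 0.416, and for the checkpoint and anaphase genes, at 0.74. With so few genes in a sum, these ratios describe the genes summed and not the steps as a whole.

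**Figure D4:**
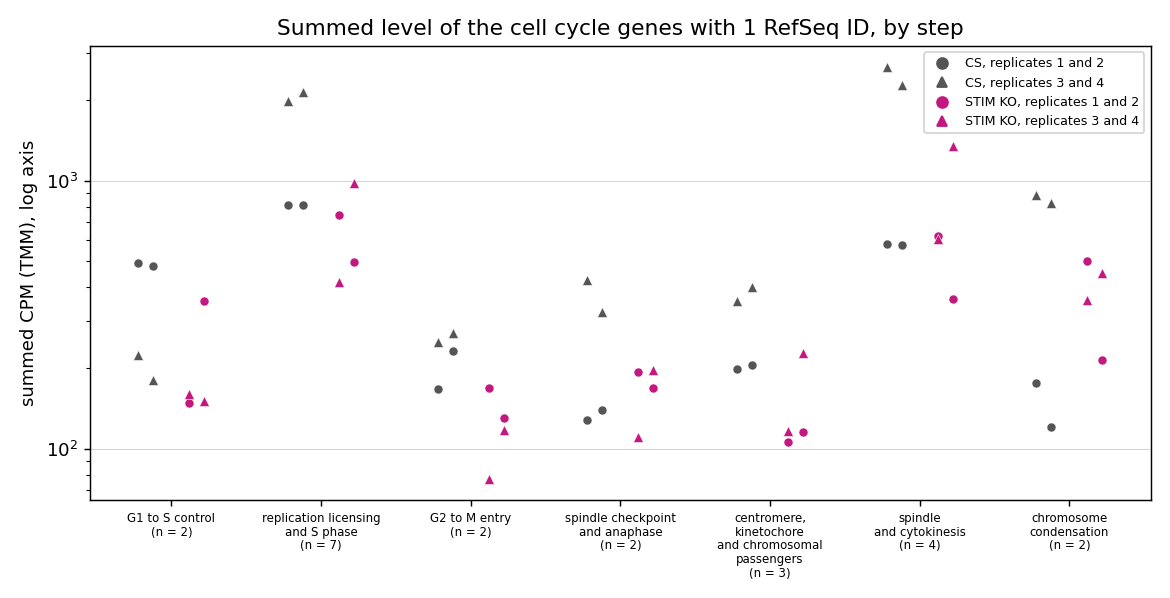
Summed CPM of the genes with a single RefSeq transcript, by cell cycle step (n is the number of genes summed). The y axis is summed CPM (log axis), grey is CS and magenta is STIM KO, circles are replicates 1 and 2 and triangles replicates 3 and 4. Grey triangles lie above magenta triangles in all 7 steps, while for condensation and for the checkpoint and anaphase genes the grey circles lie below the magenta circles.

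Within replicates 3 and 4, both STIM KO libraries were below both CS libraries in 27 of the 32 genes, against 27.4% of all genes, and above them in 0, against 26.6%. In edgeR on these 4 libraries alone, 32 cell cycle genes were tested, with Cdk4 and without stg. Of them, 18 were lower at an unadjusted p under 0.05, against a background of 11.5%, and 0 were higher, against 7.92%. None passed an adjusted p under 0.05. In the matching fit of replicates 1 and 2 alone, 3 of 29 were lower (CycB3, Mcm6 and Mcm7), against 8.04%, and 3 were higher (BubR1, SMC2 and tum), against 14.2%, and none passed an adjusted p under 0.05. Among the 32 genes tested on all 8 libraries, STIM KO replicate 3 was the lowest of the 4 libraries of replicates 3 and 4 in 25, and it was below STIM KO replicate 4 in 26. The shares of all genes in these orders were not counted, so they may belong to the libraries and not to the cell cycle genes. In replicates 1 and 2, STIM KO was below CS without overlap in 13 of the 32, against 22.6% of all genes, and above it in 7 (BubR1, CycE, dup, fzr, Orc5, SMC2 and tum), against 28.2%. In 12 genes STIM KO was lower without overlap in each set, against 9.32%. These were aurB, Cdk1, cid, CycB3, dap, E2f1, fzy, Klp61F, Mcm6, Mcm7, Orc1 and pav.

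**Figure D5:**
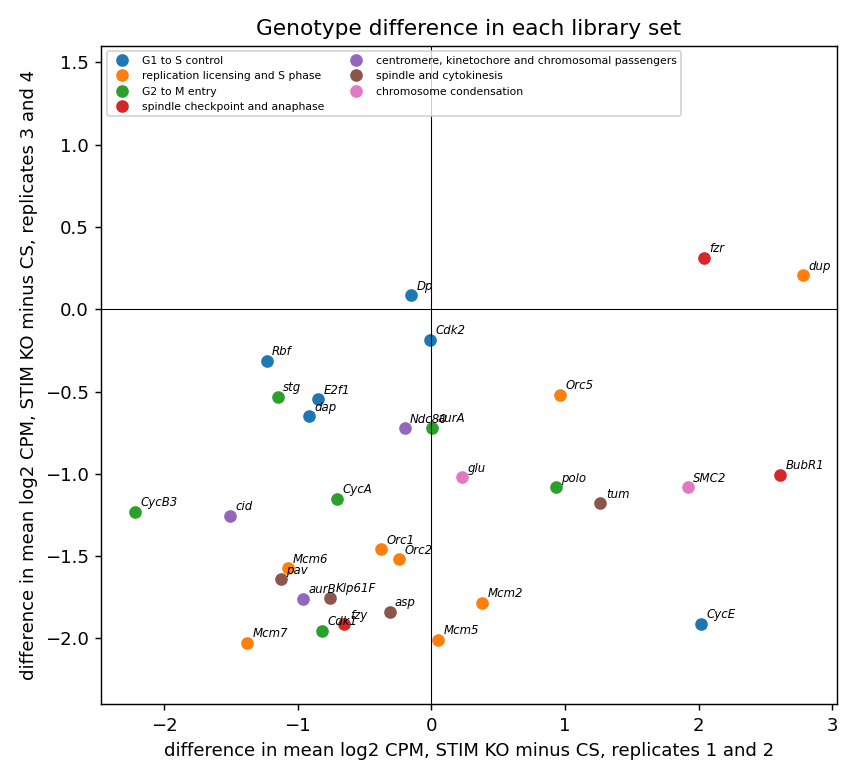
Genotype difference of the 32 tested cell cycle genes in each library set. The axes are the difference in mean log2 CPM, STIM KO minus CS, in replicates 1 and 2 (x) and in replicates 3 and 4 (y), and colours are the cell cycle steps. The y value is below 0 for 29 of 32 genes and the x value for 20 of 32, with medians of -1.16 and -0.28. Over all 5539 genes tested, the y value is below 0 for 2629 and the x value for 2499, with medians of 0.04 and 0.16.

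The difference between the sets was tested as the interaction of genotype and library set in edgeR. At an unadjusted p under 0.05 it was negative, that is, lower in STIM KO in replicates 3 and 4 relative to replicates 1 and 2, for 8 of the 32 (BubR1, CycE, dup, Mcm2, Orc5, polo, SMC2 and tum), against 11.5% of all genes. It was positive for 0, against 3.88%. The smallest p was that of SMC2 (edgeR adjusted p = 0.106), and no cell cycle gene passed an adjusted p under 0.05.

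Other genes of the same processes were taken from lists. Of 31 other DNA replication genes, 20 were tested, and 19 of these had a log2 fold change below 0, with a median of -0.67. At an unadjusted p under 0.05 by edgeR 3 were lower and 0 higher (2.96% and 3.54% over all genes), and with the set term 6 were lower and 0 higher (8.03% and 8.94%). The lowest was the primase subunit Prim2, at 80.2, 60.6, 61.4 and 66.3 CPM in CS and at 4.99, 20.4, 12.1 and 35.1 CPM in STIM KO. All its CS libraries were above its STIM KO libraries, with a log2 fold change of -1.87 (edgeR adjusted p = 0.584). The highest was Orc6, at 0.09. Of 23 other regulators of the G1, S, G2 and M phases 16 were tested, with a median of 0.01, 8 below 0 and none at an unadjusted p under 0.05, and 1 (Cks30A) was lower at that threshold with the set term. Their values ran from -1.05 for the Cdk1 subunit Cks30A to 0.76 for Cks85A. Of 26 further checkpoint, anaphase-promoting complex and cohesin genes 16 were tested, with a median of -0.53. At an unadjusted p under 0.05, 1 was lower and 1 higher, and with the set term 2 and 1. The ends of this list were san at -1.45 and Mad1 at 2.15, and STIM KO replicate 1 held 1960 CPM of Mad1 against at most 265 CPM in any other library. Of 36 further kinetochore, condensin and spindle genes 16 were tested, with 1 lower and 1 higher at an unadjusted p under 0.05 (3 and 1 with the set term) and a median of -0.24, from Cap-G at -2.25 to Mis12 at 1.48. No gene of these lists had an adjusted p under 0.05 in either fit.

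Markers of cell types in or around the brain also differed between libraries, and their part in the values above was not tested. All 7 genes listed as neuroblast markers were tested, with a median log2 fold change of -1.06 and 4 below 0. These were dpn at -1.73, mira at -1.49, ase at -1.10 and wor at -1.06, while insc was at 0.54, pros at 1.18 and brat at 1.98, and none had an adjusted p under 0.05. The value of insc turned to -1.28 with the set term. The study stained Prospero, the product of pros, as a marker of post-mitotic cells, so the list does not hold genes of neuroblasts alone. The summed level of the neuroblast markers was 1630 to 3710 CPM in CS and 967 to 9850 CPM in STIM KO, of which brat took 340.0 to 8470 CPM. The summed level of the 7 neuron markers was 529 to 5140 CPM in CS and 736 to 5430 CPM in STIM KO, and 1 of 6 tested had a log2 fold change below 0. That of the 7 glia markers was 1160 to 2320 CPM in CS and 837 to 2960 CPM in STIM KO. The 7 ring gland markers summed to 5700 and 8110 CPM in CS replicates 3 and 4 and to 875 and 3150 CPM in STIM KO replicates 3 and 4. In replicates 1 and 2 they summed to 988 and 1210 CPM in CS and to 1530 and 885 CPM in STIM KO. One of them, the steroid hydroxylase sad, had an adjusted p of 0.0305 with the set term. The 6 muscle markers summed to 452 to 4920 CPM in CS and 331 to 1900 CPM in STIM KO, nearly all of it Act57B. The 6 imaginal disc markers summed to at most 160.0 CPM in any library. The 6 epidermis and cuticle markers summed to 35.3 to 240.0 CPM and 32.4 to 249 CPM, with Cpr49Ag at an adjusted p of 0.0152 with the set term. Fat body markers summed to at most 20.2 CPM and hemocyte markers to at most 6.06 CPM in any library. Gut markers summed to at most 22.0 CPM but for 123 CPM in STIM KO replicate 4. No read was counted on the glial gene gcm, on Fbp1 and Yp1 of the fat body, or on Hml, Pxn and srp of hemocytes. The same was true of dac and salm of the discs, of Lcp3, Cpr47Ef and Sgs3 of the epidermis list, and of betaTry of the gut.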

How the data were processed

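Total RNA of larval brains was extracted with TRIzol, made into cDNA from poly(A) primers with SMART-Seq v4 and into libraries with Nextera XT, and sequenced as single reads. After trimming and alignment to dm6 with HISAT2, the authors deposited, for each library, the htseq-count number of reads per RefSeq transcript, as raw counts. The versions, the annotation and the counting mode are not given in the sources used here. A deposited table of the authors' own DESeq2 comparison (means, fold changes and p-values) was not used.

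Counts were summed per gene after matching the 34463 features to RefSeq. An exact match was found for 34399, and 51 (0.00379% of counts) had none. Coordinates are those of the Ensembl annotation of dm6. The sums were fitted on genotype by glmQLFit of edgeR 4.0.16 (R 4.3.3) with TMM factors. The filter filterByExpr was set to min.count 10 and min.total.count 15. P-values of glmQLFTest were adjusted over 5539 genes by Benjamini-Hochberg. A prior count of 2 enters log2 CPM. The exact 2-sided permutation test runs over 70 labelings of the libraries. P-values measure the spread between libraries labelled as biological replicates.

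Alternatives were DESeq2 1.42.0, other size factors, no expression filter, replicates 2 to 4, the replicate number as a block, the library set as a term, the highest transcript of each gene, and leaving out each library in turn. Fits within each set, and with the set term and a library left out, were chosen after seeing the data. Same-numbered libraries of CS and STIM KO deviated together, with correlations of 0.377 to 0.776. Other numbers of the same set gave 0.336 to 0.716 and numbers of the other set -0.788 to -0.385, so the number carries mostly the set. Every 2 libraries differed by more than sampling noise (chi-square per degree of freedom at least 7.37).

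The genes, the lists and the library sets were chosen with earlier results of these data known. Full values are given for the 16 genes with an unadjusted p under 0.05 in either fit, with no overlap between genotypes, or with the highest mean CPM of their step. Genes of other lists were named at an adjusted p under 0.05 or as the ends of their list. Neuroblast markers are given as a whole list, other members by their fold change, and asRNA:CR45871 was named after its counts were seen. Of 116 genes of the other lists 114 were found. A search of promoters for motifs was not run. Figures used matplotlib 3.10.9 in python 3.11.15. The steps were tested on simulated data.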

Additional observations from a re-analysis of the deposited data

Results flagged for a closer look

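In the 64 groups of 4 libraries looked at (32 genes in 2 genotypes), 3 had a library far from the other 3, and chance gives about 1 in 20. Orc2 in CS replicate 2 was at 5.16 log2 CPM, against 6.10 to 6.18 in the other CS libraries. Orc2 in STIM KO replicate 3 was at 3.81 log2 CPM, against 5.34 to 5.49. CycA in CS replicate 2 was at 6.21 log2 CPM, against 4.24 to 4.58.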

How the results depend on the processing

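Of 506 combinations of a tested cell cycle gene and an alternative, 478 kept the direction and the side of the threshold, 2 passed the threshold (Mcm6 and Cdk1 with DESeq2) and 26 turned direction, in 9 genes. The number of all genes called, 0 by edgeR, was 78 of 5539 with DESeq2, 41 lower and 37 higher, with 2 of the 32 cell cycle genes, both lower. It was 2 with library size only, 4 with no expression filter, 16 with the replicate number as a block, 39 with the set term and 133 in replicates 1 and 2 alone, and it was 0 with each library left out. With the block 0 of the 32 cell cycle genes were called, as without it. An unadjusted p under 0.05 by edgeR was reached by 11 with the block, against 9 without it. Without 1 library the number at an unadjusted p under 0.05 was 4 to 10, against 9 with all 8. It was 18, all lower, in replicates 3 and 4 alone, against a background of 11.5%. With the set term and 1 library left out it was 8 to 14, against 11, and the 14 came without STIM KO replicate 1. The shares over all genes at this threshold were not counted with the block or with 1 library left out. These numbers therefore do not show how stable the cell cycle genes are relative to all genes. Without 1 library 31 to 35 members were tested, with a median log2 fold change of -1.07 to -0.73, and 27 of 32 were below 0 with library size only and 25 of 32 with the block or the set term, against 28. The median of the checkpoint and anaphase genes, -0.15, was -1.15 to 0.46 without 1 library, 0.45 with the block and 0.40 with the set term. Without 1 library the median was -0.95 to -0.51 for G1 to S control, -1.46 to -0.81 for licensing and S phase, -1.54 to -0.27 for entry into mitosis, -1.51 to -1.14 for the centromere and passengers, -1.57 to -0.73 for the spindle and cytokinesis and -0.75 to 0.00 for condensation. With the block the log2 fold change turned to 0.11 for Orc5, -0.15 for polo, 0.45 for BubR1, 0.02 for tum and 0.34 for SMC2. With the set term these were 0.12, -0.02, 0.40, 0.09 and 0.39. In replicates 2 to 4, Cdk2 turned to -0.71 and polo to -0.45. Dp turned to 0.03 with library size only, 0.01 with no filter and 0.35 with the highest transcript. Leaving out 1 library at a time gave -0.74 to 1.19 for Cdk2, -0.21 to 0.04 for Dp, -0.41 to 0.24 for Orc5, -3.14 to 0.29 for stg, -0.54 to 0.70 for polo, -0.56 to 0.46 for BubR1, -0.08 to 1.02 for fzr and -0.75 to 0.16 for SMC2. The cause of these turns was not tested. The all-gene median moved from 0.04 to between -0.11 (no filter) and 0.13. A floor of 3 counts was 9.62 CPM in the shallowest library.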
